A study of Mus musculus with 21 samples.

Results

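The mouse major histocompatibility complex lies on chromosome 17, and the intervals described here are those of the deposited table between 33.5 and 37.5 Mb (build mm39) on either strand, outside a stretch from 34.482 to 34.536 Mb. Each interval is an annotated 3′ UTR or a piece of one. Where intervals of 1 strand overlapped, the 1 with the most reads over all hearts was kept, which left 974 members of 121259 kept intervals in the whole table. The plus strand held 727 of them and the minus strand 247. At least 1 read was present at 464 members and none at 510. The files give Ensembl transcript IDs with no gene names, and the reference table supplied with them matched 0 of these IDs. The members are therefore given by position, and whether a member belongs to a histocompatibility gene or to a neighbour could not be checked.

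The complex is a dense stretch of genes of immunity. Its class I genes encode surface proteins that present peptides from inside the cell to cytotoxic T cells, and its class II genes encode proteins with which antigen-presenting cells such as macrophages and B cells present peptides taken up from outside. Between and beside them lie genes for peptide loading, for complement and for cytokines of the tumour necrosis factor family, along with many genes that have no immune role. Class I genes are induced by interferon. Class I genes and their relatives are alike in sequence, so reads from them can align to several places.

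Hearts of 21 mice were profiled by SLAM-IT-seq, 1 library per mouse. All mice carried the Myh6MCM transgene (Tg/0), a tamoxifen-activated Cre recombinase under the cardiomyocyte promoter of Myh6, and all received tamoxifen on 4 days at 6 to 8 weeks of age. At 2 weeks after it they were injected with 4-thiouracil, and RNA was taken from the left ventricular free wall 6 hours later. The groups were 8 mice with Lmna +/+ and the Uprt transgene (Tg/0), 6 with Lmna F/F and Uprt, 3 with Lmna +/+ and no Uprt, and 4 with Lmna F/F and no Uprt. F denotes a floxed allele of Lmna, the gene of the nuclear envelope proteins lamin A and C. Uprt converts 4-thiouracil into a nucleotide that is built into new RNA, and the sources used here do not give the promoter of its transgene. The Lmna +/+ hearts without Uprt were all male, and the other groups held both sexes. RNA came from whole muscle wall, so fewer cells of a type and less RNA per cell cannot be told apart. The labels do not pair hearts or name litters, and replicate numbers below only name a heart.

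Libraries held 25975911 to 51007428 reads on kept intervals. A read counts as a T>C read when it shows a C at a reference T, which can come from built-in 4-thiouracil, from a base that differs from the reference or from an error, and the table does not separate these. Over the whole library, T>C reads made up 4.53% to 5.93% of reads in the 14 hearts with Uprt and 3.08% to 4.09% in the 7 without. The level of Lmna and the marker genes of heart cell types could not be read because the IDs are not paired with names. Levels below are CPM, counts scaled to a common library size with edgeR's TMM factors, and CPM is not corrected for length, so levels are compared between hearts and not between members.

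Of the 974 members, 205 had enough reads to be tested for their level, 125 had a mean of at least 1 CPM and 74 of at least 5 CPM. The member with the most reads was chr17:34057073-34057288, with a mean of 493 CPM over the 21 hearts. It lay at 547 ± 36.0 CPM (SD, n = 8) in Lmna +/+ and 464 ± 45.8 (n = 6) in Lmna F/F hearts with Uprt. Without Uprt it lay at 533 ± 54.3 (n = 3) and 399 ± 89.1 (n = 4). Its log2 fold changes between Lmna genotypes did not pass the test, at -0.23 ± 0.10 (SE, edgeR adjusted p = 0.291) with Uprt and -0.40 ± 0.15 (edgeR adjusted p = 0.125) without. The next by level were chr17:37259248-37260243 at 110 CPM, chr17:35485847-35486475 at 103 CPM and chr17:36143432-36143683 at 98.1 CPM. Multimapped reads made up at least 50% of reads at 23 members, 11 of them among the 205 tested. Another 11 tested members began within 100 bases, the length of a read, of the one before them on their strand, and such neighbours can share reads.

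The first comparison asked how the level of the members differed in hearts with Lmna F/F. Among hearts with Uprt, 16 of the 205 tested members (7.80%) were called at an edgeR adjusted p under 0.05, and all 16 were higher in Lmna F/F. Over all 31327 intervals tested, 2.45% were called, 2.19% higher and 0.265% lower. The members called ranged in log2 fold change from 0.37 to 2.10, while the median of all 205 was 0.12 and that of all intervals tested 0.01. Every Lmna F/F heart lay above every +/+ heart at 14 of the 205 members (6.83%) and at 1.42% of all intervals tested. Among those called higher, where the call itself favours this, it was 12 of the 16 members (75%) and 54.1% of all intervals.

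**Figure D1:**
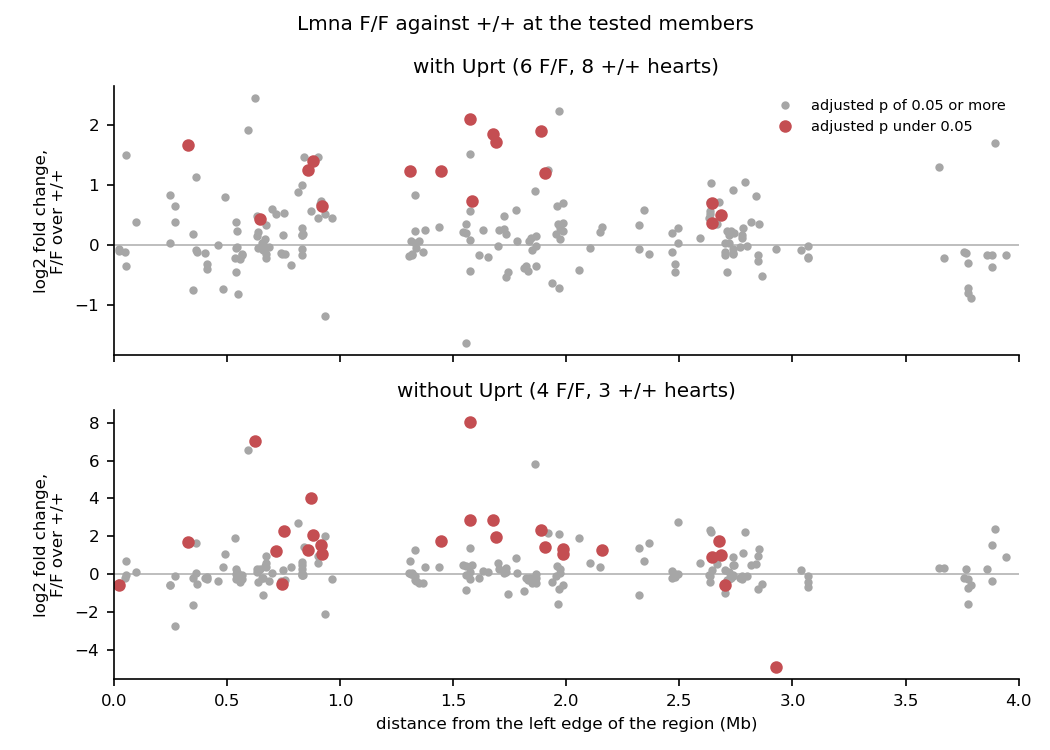
Log2 fold change of Lmna F/F over +/+ (vertical axis) at each of the 205 tested members against its distance in Mb from the left edge of the region, for hearts with Uprt (upper panel) and without (lower panel). Filled red points passed the adjusted p of 0.05, 16 above and 26 below, and they lie from the left edge to about 2.9 Mb. The points at 8.05 and 7.04 in the lower panel have no read in the +/+ hearts, so their fitted height is no measured fold.

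The largest rise with Uprt was at chr17:35075350-35075544 on the minus strand (ENSMUST00000141295.8). Its level in the 8 Lmna +/+ hearts ran from 0.991 to 3.07 CPM with a median of 1.52, and in the 6 Lmna F/F hearts from 4.82 to 10.3 CPM with a median of 6.48. The groups did not overlap, and the log2 change was 2.10 ± 0.31 (SE, edgeR adjusted p = 0.000139). At chr17:35389967-35390084, also on the minus strand (ENSMUST00000172693.8), the +/+ hearts lay between 2.00 and 4.46 CPM (median 3.22) and the F/F hearts between 9.35 and 17.4 (median 10.5). No heart of 1 group reached the other there, and the log2 fold change was 1.90 ± 0.29 (edgeR adjusted p = 0.000209).

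A pair of minus-strand members close to each other followed. At chr17:35175412-35176054 the +/+ hearts ranged from 0.251 to 2.33 CPM (median 0.697) and the F/F hearts from 1.71 to 4.63 (median 3.49), and the log2 ratio of F/F over +/+ was 1.85 ± 0.34 (edgeR adjusted p = 0.00158). At chr17:35188166-35188975 the ranges were 0.579 to 3.23 (median 1.06) and 3.48 to 5.68 CPM (median 4.50), with 1.71 ± 0.28 (edgeR adjusted p = 0.000511). The groups overlapped at the first of these and stood apart at the second. Farther left, chr17:33826273-33826738 rose from 0.925 to 2.94 CPM (median 2.09) to 3.75 to 9.30 CPM (median 6.22), with 1.66 ± 0.28 (edgeR adjusted p = 0.000644).

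The other members called with Uprt had smaller changes. Those at 34378914, 34356191, 34810144, 34947354 and 35404071 had log2 fold changes of 1.39, 1.24, 1.24, 1.23 and 1.19. The remaining 6 changed by less than 1, among them chr17:36144813-36145873. There the +/+ hearts ran from 41.8 to 87.3 CPM (median 71.5) and the F/F hearts from 99.9 to 131 (median 108), with no overlap and a log2 change of 0.70 ± 0.15 (edgeR adjusted p = 0.00968). The smallest change called was 0.37 ± 0.09 at chr17:36143432-36143683 (edgeR adjusted p = 0.0271), where the +/+ hearts ran from 74.2 to 102 CPM and the F/F hearts from 88.9 to 130. The count of 16 was 10 without Lmna F/F Uprt replicate 2 and 8 in male hearts alone, where the share of all intervals called fell from 2.45% to 1.65% and 0.697%.

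Among hearts without Uprt, 26 of the 205 members (12.7%) were called, 22 higher and 4 lower in Lmna F/F. Over all intervals tested, 5.17% were called, 3.46% higher and 1.72% lower. The median of the 205 members was 0.09, also with the members that had no read in a group set at their bound, and that of all intervals was 0.03. Every F/F heart lay above every +/+ heart at 30 of the 205 members (14.6%) and at 8.08% of all intervals tested. Among those called higher it was 16 of the 22 members (72.7%) and 78.8% of all intervals. The 2 Lmna comparisons had 12 members in common, all higher in both, which is 75% of the 16 and 46.2% of the 26. Over all intervals, those called in both and in 1 direction were 64.0% of the calls with Uprt and 30.4% of those without. The 4 others called with Uprt also had fold changes above 0 without it. The interaction, which tests whether the Lmna difference itself differs between hearts with and without Uprt, called 0 of the 205 members (background 0%) in edgeR and 0 in DESeq2. At an unadjusted p under 0.05 edgeR had 21 of the 205 and 2204 of all 31327.

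At chr17:35075350-35075544 the +/+ hearts without Uprt had 1.31, 2.24 and 1.52 CPM and the F/F hearts 16.6, 18.4, 2.48 and 7.45 CPM. Replicate 3 of the F/F group was only slightly above the highest +/+ heart, and the log2 change was 2.85 ± 0.48 (SE, edgeR adjusted p = 0.000768). At chr17:35175412-35176054 the +/+ hearts had 0.599, 0.832 and 1.09 CPM and the F/F hearts 7.24, 14.7, 8.39 and 3.17 CPM, with 2.86 ± 0.53 (edgeR adjusted p = 0.00178). At chr17:35389967-35390084 the values were 5.20, 2.65 and 2.67 against 39.1, 14.0, 4.99 and 12.5 CPM. There F/F replicate 3 fell inside the +/+ range, and the log2 fold change was 2.35 ± 0.44 (edgeR adjusted p = 0.00185). At chr17:34378914-34379204 they were 6.54, 0.932 and 2.72 against 23.8, 10.9, 5.28 and 14.5 CPM, with 2.07 ± 0.45 (edgeR adjusted p = 0.00632).

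**Figure D2:**
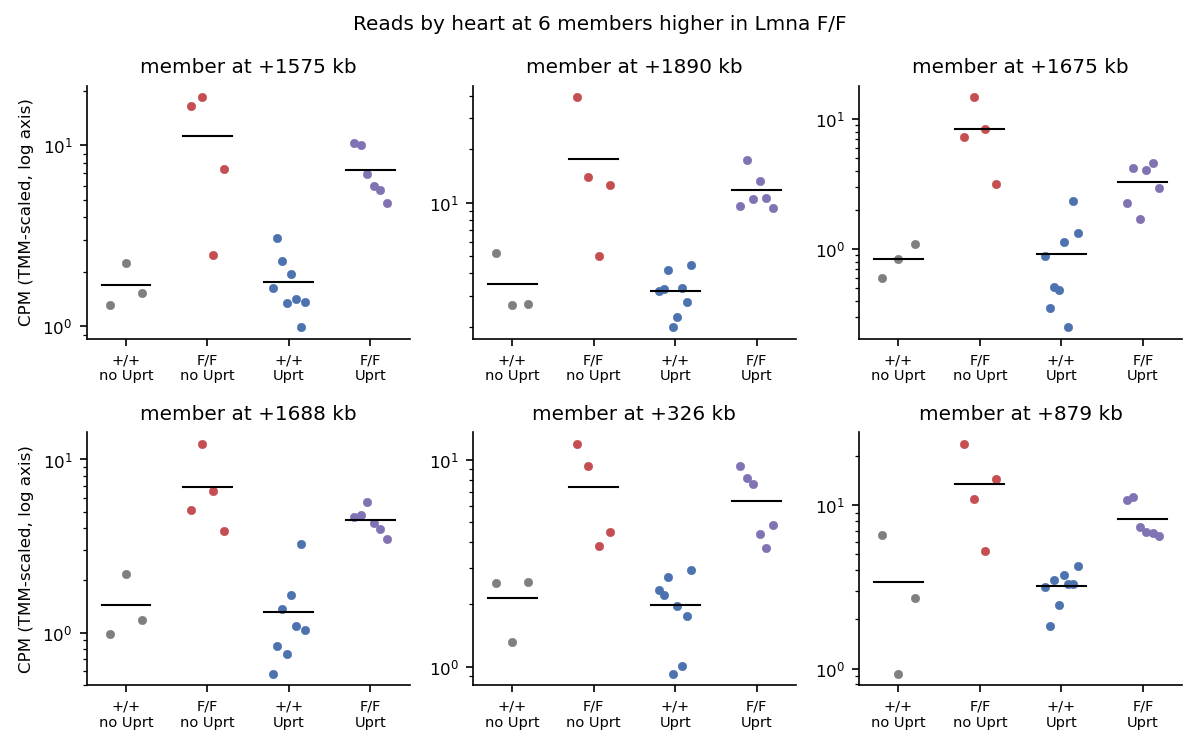
CPM by heart (log axis, TMM-scaled) in the 4 groups at the 6 members with the largest changes among those called in both Lmna comparisons, named by distance from the left edge of the region (+1575 kb is 35075350, +1890 kb 35389967, +1675 kb 35175412, +1688 kb 35188166, +326 kb 33826273 and +879 kb 34378914). Each point is a heart and each line a group mean. The F/F hearts lie above most +/+ hearts in each panel, and the lowest of the 4 F/F hearts without Uprt lies well below the other 3 in several panels.

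Abundant members were also among those called without Uprt. At chr17:35485847-35486475 the +/+ hearts had 55.7, 47.6 and 69.7 CPM and the F/F hearts 127, 131, 79.7 and 132 CPM, and the log2 change was 1.08 ± 0.24 (SE, edgeR adjusted p = 0.00863). In hearts with Uprt the same member ran from 64.4 to 152 CPM in +/+ and from 89.2 to 155 in F/F, and its change of 0.37 did not pass (edgeR adjusted p = 0.280). At chr17:34214991-34215445 the hearts without Uprt had 46.5, 27.3 and 48.2 against 104, 92.9, 67.3 and 106 CPM, with 1.21 ± 0.22 (edgeR adjusted p = 0.00150). In hearts with Uprt its change was 0.53 (edgeR adjusted p = 0.0559).

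The highest fitted values without Uprt came from members with few reads. The minus-strand member chr17:35075550-35075558 is 9 bases long and adjoins the member at 35075350, so the same reads can reach both. It had 0 reads in the 3 +/+ hearts and 122 in the 4 F/F hearts, at 0.878, 1.39, 0.0973 and 0.545 CPM. The member chr17:34125293-34125649 had 0 reads against 53, at 0.285, 0.430, 0.0973 and 0.420 CPM in the F/F hearts. Set against a floor of 3 reads over the +/+ group, their means were at least 29.9-fold and at least 12.6-fold higher in Lmna F/F. Both passed the test, with edgeR adjusted p values of 0.00526 and 0.0200, and are among the 26 members called. Of the 2 groups compared, only the F/F hearts could give either member enough reads to be tested. This favours such calls, so the p values are no separate support.

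Of the 4 members lower in Lmna F/F without Uprt, 3 had small changes at higher levels. At chr17:36203575-36203904 (ENSMUST00000154670.8) the +/+ hearts had 79.3, 70.7 and 65.6 CPM and the F/F hearts 42.6, 37.3, 47.0 and 58.1, and the log2 ratio of F/F over +/+ was -0.59 ± 0.14 (SE, edgeR adjusted p = 0.0121). The groups did not overlap. The members at 33522171 and 34245007 changed by -0.55 and -0.54. Their calls held in 12 and in 4 of the 21 fits that left out 1 heart, and that of 36203575 in 19. On the library size alone, which moved the median of all intervals from 0.03 to 0.17, these 3 were not called and the calls without Uprt were 26 higher and 1 lower. Over all 31327 intervals the calls were then 1456 higher and 265 lower. The fourth, chr17:36427089-36428013, rested on 1 +/+ heart and is described with the Uprt comparison.

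The hearts without Uprt were uneven. Lmna F/F replicate 3 was the lowest of its group at 18 of the 22 members called higher and lay at or below the highest +/+ heart at 5, while replicate 1 was the highest at 11, replicate 2 at 6 and replicate 4 at 5. The count of 26 was 12 without F/F replicate 1, 15, 13 and 16 without +/+ replicates 1, 2 and 3, and 0 without F/F replicates 1 and 2 together. The share of all intervals called fell along with it, from 5.17% to 1.48%, to 2.25%, 2.39% and 2.61%, and to 0.365%. The count was 2, of 171 members tested, in a fit of these 7 hearts alone, where the spread is estimated from them only. In that fit 32 of all 26616 intervals were called. With Uprt, Lmna F/F replicate 6 was the lowest of its group at 8 of the 16 members called, and Lmna +/+ replicate 8 was the highest of its group at 7.

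Summed over all members, reads came to 2543 ± 152 CPM of the plain library total (SD, n = 6) in Lmna F/F and 2174 ± 108 (n = 8) in Lmna +/+ hearts with Uprt. The groups did not overlap, and the difference was 369 CPM (two-sided exact permutation p = 0.000666, the smallest the design allows, and 0.00266 adjusted over 4 comparisons). On the TMM-scaled library size the difference was 96.3 with an adjusted exact permutation p of 0.202, so the call holds on the plain total only. The TMM factors averaged 1.04 in F/F and 0.930 in +/+ hearts with Uprt. Without Uprt the sums were 2736 ± 296 (n = 4) and 2327 ± 38.5 (n = 3), with an exact permutation p of 0.0571, again the smallest possible, and 0.0762 after adjustment.

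The region was cut into 8 windows of 500 kb, and differences between windows were not tested. Reads in windows are given on the TMM-scaled library size, unlike the sums above on the plain total. In the fourth window, from 35.0 Mb, the summed reads were 421 ± 22.1 CPM in F/F and 359 ± 31.9 in +/+ hearts with Uprt, and 448 ± 58.6 and 344 ± 21.2 without. In the sixth, from 36.0 Mb, they were 488 ± 51.1 and 401 ± 44.5 with Uprt, and 479 ± 86.8 and 414 ± 9.92 without. The second window, which holds the most reads of the region, was at 995 ± 48.7 and 1034 ± 64.0 with Uprt, and 987 ± 124 and 1038 ± 80.1 without. In the seventh and eighth windows the F/F means were the lower ones. In the seventh they were 63.8 ± 8.08 against 72.5 ± 10.3 with Uprt, and 61.6 ± 10.4 against 76.5 ± 6.02 without. In the eighth they were 140 ± 10.5 against 156 ± 18.4 with Uprt, and 131 ± 17.2 against 150 ± 7.63 without. Of the 16 members called with Uprt, 6 lay in the fourth window (of 48 tested), 4 in the second (of 53) and 3 in the sixth (of 37). In the last 2 windows 4 and 13 members were tested and 0 were called in either Lmna comparison, too few for a statement about them.

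The second comparison asked how the T>C share, the percentage of the reads of an interval that are T>C reads, differed with Uprt. The share could be tested at 95 members, those that passed filterByExpr at a minimum count of 10 for T>C reads and for unconverted reads. An interval can pass on T>C reads through the hearts with Uprt alone, which favours calls higher with Uprt. Of the 95 members, 52 (54.7%) were called, all higher with Uprt. This is close to the whole table, where 56% of the 13539 intervals tested were called and 55.8% were higher. Over the 95 members the log2 odds ratio had a median of 1.37, and over all intervals of 1.18. With no minimum of reads 7633 of all 38446 intervals were called, 7577 of them higher, and the median of all intervals was 0.95. Between Lmna genotypes 0 of the 95 members were called in edgeR with Uprt and 0 without, where the background is 0.00739% in each. At an unadjusted p under 0.05 they were 3 and 4 members (3.16% and 4.21%), against 2.77% and 6.62% of all intervals. With no minimum of reads 1 and 2 members were called, and 27 and 66 of all 38446 intervals.

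Over the whole region, the T>C share in Lmna +/+ hearts was 5.74% ± 0.552 (SD, n = 8) with Uprt and 3.24% ± 1.06 (n = 3) without. The exact permutation p was 0.0121, the smallest possible, and 0.0242 after adjustment over 4 comparisons. In Lmna F/F hearts it was 5.96% ± 0.437 (n = 6) and 2.98% ± 0.419 (n = 4), with an exact permutation p of 0.00952, also the smallest possible, and 0.0242 adjusted. Within hearts with Uprt, F/F and +/+ differed by 0.220 percentage points (exact permutation p = 0.432), and without Uprt by -0.262 (exact permutation p = 0.686). All other intervals rose less with Uprt, from 3.58% to 4.92% in +/+ and from 3.61% to 5.07% in F/F hearts. The region thus lay 0.814 points above the other intervals in +/+ hearts with Uprt and -0.333 points from them without, a difference of 1.15 that did not pass (exact permutation p = 0.0364, adjusted 0.0727). In F/F hearts the same difference was 1.52 points (exact permutation p = 0.00952, adjusted 0.0381). Much of the excess came from 1 member, chr17:34147126-34148266, described below. Without it the region lay 0.292 points above the other intervals in +/+ and 0.267 in F/F hearts with Uprt, in place of 0.814 and 0.888. The differences between hearts with and without Uprt were then 0.864 and 0.851 points (adjusted exact permutation p = 0.0242 in each). The member left out was picked from these same values after they were seen, so these p values are a description only. The members at 34835636, 34168390 and 34157795, also described below, stayed in the sum.

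The 3 +/+ hearts without Uprt had region shares of 2.35%, 4.42% and 2.96%. Replicate 2 was the highest of all 7 hearts without Uprt, the others of which reached 3.43%, and the only 1 of them whose region share exceeded that of its other intervals, by 0.583 points. Its library-wide share of 3.84% lay among those of the other hearts without Uprt. Leaving it out raised the Uprt difference in +/+ hearts from 2.49 to 3.08 points and turned the Lmna difference without Uprt to 0.326.

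**Figure D3:**
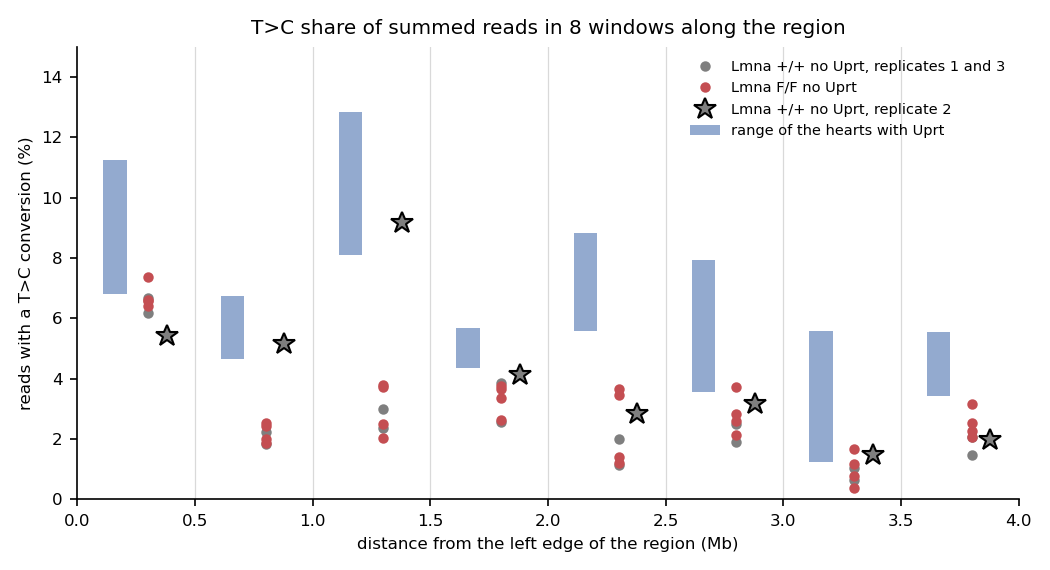
Percentage of summed reads that are T>C reads (vertical axis) in 8 windows of 500 kb, against distance from the left edge of the region in Mb. Bars span the 14 hearts with Uprt, circles are hearts without Uprt and the star is Lmna +/+ no Uprt replicate 2. The star lies within the bar in windows 2, 3 and 7 from the left, and in windows 2 and 3 it stands apart from the other 6 hearts without Uprt.

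Along the region this heart did not stand out evenly. In the second window, from 34.0 to 34.5 Mb, its share was 5.13%, inside the 4.65% to 6.75% of the 14 hearts with Uprt, while the other 6 hearts without Uprt reached at most 2.52%. In the third window, from 34.5 to 35.0 Mb, its share was 9.15%, inside the 8.10% to 12.9% of the Uprt hearts, against at most 3.78% in the other 6. In the fourth it had 4.10%, where the other 6 reached 3.87% and the Uprt hearts began at 4.37%. In the other 5 windows it lay at or below the highest of the other 6.

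Single members of these windows, and some outside them, showed the same. At chr17:34147126-34148266 on the plus strand, the T>C share ran from 20.6% to 28.3% (median 22.7%) in +/+ and from 19.7% to 24.9% (median 22.2%) in F/F hearts with Uprt. Without Uprt it was 1.07%, 27.4% and 1.25% in the 3 +/+ hearts and 1.90%, 2.04%, 1.82% and 1.33% in the F/F hearts. Replicate 2 of the +/+ group thus stood with the Uprt hearts, on 852 T>C reads of 3115, and the other 6 stood apart below. The log2 odds ratio of Uprt against none was 3.53 ± 0.46 (SE, edgeR adjusted p = 1.82e-06) and 4.29 without that heart.

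At chr17:34835636-34836317 on the minus strand, the Uprt hearts ran from 31.9% to 53.5%, and the +/+ hearts without Uprt had 1.76%, 39.0% and 2.21%. The F/F hearts without Uprt had 2.52%, 6.88%, 1.63% and 7.01%. Replicate 2 again fell inside the Uprt range, and the log2 odds ratio was 3.70 ± 0.55 (SE, edgeR adjusted p = 7.97e-06). At chr17:34168390-34168671 the Uprt hearts ran from 11.6% to 44.7%, replicate 2 had 13.2% and the other 6 from 0% to 2.64%. At chr17:36228090-36229250 the Uprt hearts ran from 7.53% to 20.6%, replicate 2 had 10.1% and the other 6 at most 2.56%. This member lies in the sixth window, where replicate 2 had 3.14% over all reads and the other 6 reached 3.73%.

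At chr17:34157795-34157961 replicate 2 was above all other hearts, at 16.0%, where the Uprt hearts ran from 7.11% to 11.7% and the other 6 without Uprt from 0.259% to 1.56%. Conversions at T positions inside this interval were only 0.116 per T>C read in the Uprt hearts, against 1.02 at 34147126, so most of its T>C reads had their conversion outside the interval. At chr17:34239766-34240355 replicate 2 had 25.9% and the other 6 at most 6.06%, a value that the lowest Uprt heart, at 5.80%, did not exceed.

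**Figure D4:**
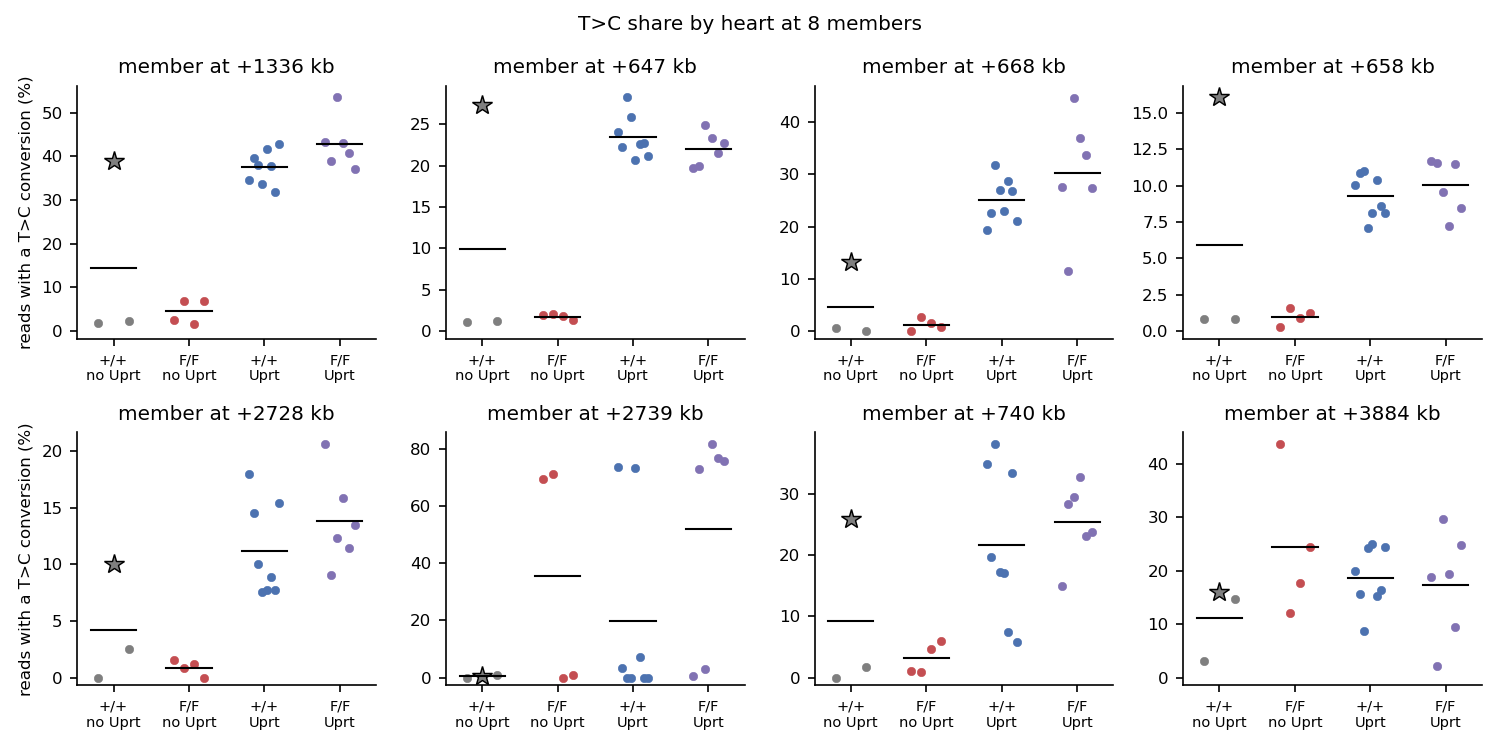
Percentage of reads that are T>C reads by heart in the 4 groups at 8 members, named by distance from the left edge of the region (+1336 kb is 34835636, +647 kb 34147126, +668 kb 34168390, +658 kb 34157795, +2728 kb 36228090, +2739 kb 36238802, +740 kb 34239766 and +3884 kb 37383919). Each point is a heart, each line a group mean and the star Lmna +/+ no Uprt replicate 2. In the first 5 panels and at +740 kb the star stands well above the other hearts without Uprt, and at +2739 kb hearts of 3 groups split into a set near 70% to 82% and a set near 0%.

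Counted over the 114 members with at least 20 reads in every heart, replicate 2 lay within or above the Uprt range, with the other 6 below it, at 8 (7.02%). Over all 15089 such intervals the count was 173 (1.15%). For each of the other hearts without Uprt the same count was 0 to 2 of the 114, while over all intervals it was 0.272% and 1.49% for +/+ replicates 1 and 3 and 0.437%, 1.6%, 0.497% and 1.58% for F/F replicates 1 to 4. Over the whole table replicate 2 thus lay among the others. All 14 Uprt hearts lay above all 7 others at 5 of the 114 (4.39%), against 11.2% of all intervals. The members share a chromosome and may share reads, so these counts are a description of 1 heart and were made after its values had been seen. With a gap of more than 5 percentage points between the Uprt hearts and the other 6, replicate 2 stood with the Uprt hearts at 7 intervals of the whole table. Of these, 4 were members, 2 lay elsewhere on chromosome 17 and 1 on another chromosome. Both of those on chromosome 17 lay close by, at chr17:33235837-33237376, left of the region, and at chr17:34501718-34501997, in the stretch that was set aside. At the latter the Uprt hearts ran from 46.0% to 54.5%, replicate 2 had 48.9% and the other 6 at most 4.27%. The count with a gap of more than 5 points is not given for the other 6 hearts, so it has no comparison. What sets replicate 2 apart was not tested. Whether the T>C reads at these members come from built-in 4-thiouracil or from bases that differ from the reference was not tested either, so their shares and odds ratios are not a measure of new RNA on their own.

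Beyond the members above, chr17:37168292-37170290 had 3.95% to 11.5% in +/+ and 2.10% to 15.1% in F/F hearts with Uprt, against 0.692%, 0.599% and 0% in +/+ and 3.66%, 1.96%, 2.47% and 5.16% in F/F hearts without. Its log2 odds ratio was 3.01 ± 0.46 (SE, edgeR adjusted p = 1.02e-05), and replicate 2 of the +/+ hearts lay with the others there. At chr17:36133203-36133815, with a mean of 68.6 CPM, the Uprt hearts ran from 7.40% to 17.2% and the hearts without Uprt from 2.83% to 5.90%. The groups stood apart, and the log2 odds ratio was 1.53 ± 0.22 (edgeR adjusted p = 5.19e-06). The most abundant member, at 34057073, had the smallest ratio called, 0.33 ± 0.12 (edgeR adjusted p = 0.0234), from 1.51% to 2.23% without Uprt and from 1.95% to 3.13% with it.

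A share of at least 20% on at least 20 reads was reached in a heart without Uprt at 14 members (1.44%), against 2.56% of all kept intervals. They include 34147126 and 34835636, through replicate 2 of the +/+ hearts alone, and others where the share did not follow Uprt. At chr17:36238802-36239221 the shares fell into separate sets. They were 73.8% and 73.5% in Lmna +/+ Uprt replicates 1 and 5, 73.0%, 81.7%, 76.7% and 75.9% in Lmna F/F Uprt replicates 2, 4, 5 and 6, and 69.5% and 71.2% in Lmna F/F no Uprt replicates 1 and 2. The other 13 hearts had at most 7.14%, among them all 3 Lmna +/+ hearts without Uprt. Its level was similar in the 4 groups, with means from 5.70 to 6.27 CPM. At chr17:35073421-35073730 the 4 F/F hearts without Uprt had 58.7%, 40.5%, 59.2% and 57.4% and the +/+ hearts 8.14%, 7.14% and 0%. With Uprt the same member ran from 0% to 60.8% in +/+ and from 0% to 34.0% in F/F hearts, so it followed neither factor in all hearts. Its mean level was low, at 1.72 CPM over the hearts. Its log2 odds ratio of F/F against +/+ was 4.29 ± 1.91 (SE) without Uprt and -1.31 ± 1.43 with it. Neither passed (edgeR adjusted p of 0.743 and 0.9996). The cause of these splits was not tested.

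For reads between hearts with and without Uprt, 3 of the 205 members were called (1.46%), 2 higher and 1 lower with Uprt, where 0.0894% of all intervals were called higher and 0.0255% lower, 0.115% in all. At an unadjusted p under 0.05 there were 46 of the 205 members (22.4%) and 10.3% of all intervals. All 3 were low in level, with means under 3 CPM.

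**Figure D5:**
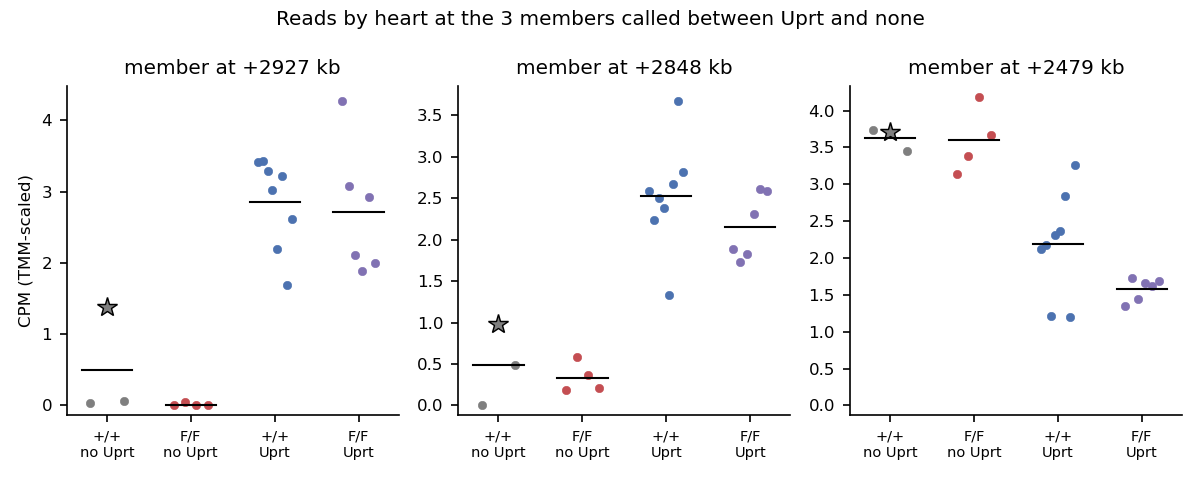
CPM by heart (TMM-scaled) in the 4 groups at the 3 members called between hearts with and without Uprt, named by distance from the left edge of the region (+2927 kb is 36427089, +2848 kb 36348325 and +2479 kb 35978722). Each point is a heart, each line a group mean and the star Lmna +/+ no Uprt replicate 2, which at the first 2 members lies between the other hearts without Uprt and those with it.

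The largest difference was at chr17:36427089-36428013 on the plus strand (ENSMUST00000174728.3). With Uprt its level ran from 1.69 to 3.42 CPM (median 3.12) in +/+ and from 1.88 to 4.27 CPM (median 2.52) in F/F hearts. Without Uprt it was 0.0272, 1.39 and 0.0642 CPM in the +/+ hearts and 0, 0.0506, 0 and 0 CPM in the F/F hearts. Replicate 2 of the +/+ hearts was close to the lowest Uprt heart, and the other 6 were near 0. The log2 change was 5.10 ± 0.56 (SE, edgeR adjusted p = 2.63e-05), and 6.74 without replicate 2. The member could pass the minimum count only through the hearts with Uprt, where it is high. This favours a call higher with Uprt, so the adjusted p is no separate support for the difference. This member was also the fourth one called lower in Lmna F/F without Uprt, at -4.90 ± 1.05 (edgeR adjusted p = 0.00602), on 59 reads in the +/+ and 2 in the F/F hearts. The ratio of +/+ over F/F reads per library size was 40.8, with an exact 95% interval of 10.8 to 345 that covers counting error only. Without replicate 2 it was -1.63 on the log2 scale and not called (edgeR adjusted p = 0.494).

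At chr17:36348325-36349327 on the plus strand the Uprt hearts ran from 1.33 to 3.67 CPM, and the hearts without Uprt had 0, 0.983 and 0.492 CPM in +/+ and 0.190, 0.582, 0.365 and 0.210 CPM in F/F. No heart without Uprt reached the Uprt range, and replicate 2 was the nearest to it. The log2 change was 2.40 ± 0.36 (SE, edgeR adjusted p = 0.00220) and 2.86 without replicate 2. The member lower with Uprt, chr17:35978722-35978894, ran from 1.19 to 3.27 CPM in +/+ and from 1.35 to 1.73 CPM in F/F hearts with Uprt. Without Uprt it had 3.73, 3.70 and 3.44 CPM in +/+ and 3.13, 3.39, 4.18 and 3.67 CPM in F/F hearts, and its log2 fold change was -0.93 ± 0.18 (edgeR adjusted p = 0.0272). It begins right after the end of the member chr17:35978622-35978721, which lay at -0.34 ± 0.13 (edgeR adjusted p = 0.341), and the 2 can share reads. Its call was lost when any 1 of 7 hearts was left out, with edgeR adjusted p values of 0.0567 to 0.0822. In Lmna +/+ hearts alone none of the 3 was called, and in F/F hearts alone those at 36427089 and 36348325 were.

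At some members the hearts of a group differed widely in level. At chr17:33992724-33994360, picked after its values were seen, the +/+ hearts with Uprt ran from 0.890 to 4.38 CPM except replicate 8, at 22.4 CPM. The F/F hearts with Uprt ran from 2.67 to 14.3 CPM. Without Uprt the +/+ hearts had 2.70, 10.1 and 14.8 CPM and the F/F hearts 24.7, 28.1, 3.53 and 23.4 CPM. The groups overlapped, and the log2 fold changes of 0.80 ± 0.56 and 1.06 ± 0.81 between Lmna genotypes did not pass (SE, edgeR adjusted p of 0.580 in each).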

How the data were processed

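The deposited values used are counts per 3′ UTR interval and library (reads, T>C reads, multimapped reads, bases over T and conversions), in SlamDunk's column layout per the file headers, and the submitters' processing notes name build mm39. The sources used here do not give alignment options, annotation version or any variant filter. Per the labels' protocols, QuantSeq 3′ libraries were read from 1 end over 100 bases. For each heart they give 1.5 µg of RNA and 12 mM iodoacetamide. Replicates are separate mice, 1 library each.

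Overlapping intervals of the whole table were reduced as in the region. For reads, 1 quasi-likelihood fit (edgeR 4.0.16, R 4.3.3, TMM, filterByExpr at a minimum count of 10) was made of the 21 libraries with group and sex. Uprt against none is the mean of its differences within both Lmna genotypes. T>C shares were tested on converted and unconverted reads with an effect per library. P-values were adjusted (Benjamini-Hochberg) over all intervals tested, with a threshold of 0.05. Region values per heart had exact permutation tests, two-sided (scipy 1.17.1). Scripts were tested on simulated counts.

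Members named were the 10 with the largest change per comparison and direction, the 10 most abundant, at most 8 with a share of 20% without Uprt and at most 8 with the most hearts far from their group. Those described for Lmna +/+ no Uprt replicate 2 and for spread were picked after their values were seen. The members, gene lists and rules were chosen with earlier results of these data known. The gene lists and cell type markers were not used because IDs are not paired with names. Transcript IDs are printed for 2 members that rose and 2 that fell in Lmna F/F. Alternatives were DESeq2 1.42.0, its size factors, other filters, no sex term, male hearts, fewer groups, 1 interval per chain of overlaps, subtraction of multimapped reads, conversions per T position, a quasi-binomial model (limma 3.58.1) and each heart left out. Library size alone, F/F no Uprt replicates 1 and 2 left out, each Lmna genotype alone and the member with the largest part in the Uprt difference left out were added after seeing the data.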

Additional observations from a re-analysis of the deposited data

Results flagged for a closer look

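Single hearts stood far from the rest of their group, by Dixon's ratio in groups of 4 to 10 hearts, in the region's T>C share and at a number of the named members. Chance gives such a heart in about 1 of 20 groups. The region's T>C share was 6.88% in Lmna +/+ Uprt replicate 3, the highest of its group.

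Several concerned the T>C share of 1 member. Lmna F/F Uprt replicate 6 was lowest at 33522171 with 4.49%, and Lmna F/F Uprt replicate 1 was highest at 36267711 with 4.14%. Lmna +/+ Uprt replicate 8 was highest at 33548316 with 26.6% and at 34947354 with 2.40%, and lowest at 37168292 with 3.95%. Lmna +/+ Uprt replicate 3 was highest at 34256506 with 19.7%, replicate 6 at 34356191 with 17.5% and replicate 2 at 35472466 with 7.43%. Among the F/F hearts without Uprt, replicate 2 was lowest at 34048367 with 0.112% and highest at 34256506 with 11.2%. Replicate 4 was highest at 34356191 with 5.43%, replicate 3 at 36267711 with 1.45%, and replicate 1 was lowest at 37259248 with 1.12%.

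Others concerned the level. Lmna +/+ Uprt replicate 8 was highest at 34048367 with 56.5 CPM and at 34214991 with 72.1 CPM, replicate 2 was highest at 35472466 with 34.5 CPM and replicate 7 lowest at 34057073 with 469 CPM. Lmna F/F Uprt replicate 5 was highest at 34835636 with 11.8 CPM. Among the F/F hearts without Uprt, replicate 4 was highest at 33961458 with 111 CPM, replicate 3 was lowest at 34947354 with 4.16 CPM and at 35485847 with 79.7 CPM, and replicate 1 was lowest at 36238802 with 4.75 CPM.

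Over the 74 members of at least 5 CPM, such a heart was found in the level at 8 (+/+ Uprt, 10.8%), 3 (F/F Uprt, 4.05%) and 4 members (F/F no Uprt, 5.41%). In the T>C share it was found at 9 (12.2%), 4 (5.41%) and 6 members (8.11%). The same was not counted over all intervals. Lmna +/+ Uprt replicate 8 accounted for 4 of the 8 in the level. The group of 3 hearts is too small for this comparison.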

How the results depend on the processing

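No paired analysis was possible because the labels give no replicate numbers or litters that hearts of different groups share. Counts are of members called, against 16 (Lmna F/F with Uprt), 26 (without), 3 (Uprt, reads), 0 (interaction) and 52 (Uprt, T>C share). In male hearts they were 8, 22, 1, 0 and 30. Over all intervals they were 210, 993, 7 and 1 of 30138 for reads and 5009 of 12473 for the share. The Uprt differences in region T>C share were then 2.17 (+/+) and 3.16 points (F/F) with adjusted exact permutation p values of 0.229 and 0.444. The Lmna difference in region reads with Uprt was then 320 CPM (adjusted exact permutation p = 0.267). So few male hearts cannot pass here, since the smallest exact p values are 0.0571, 0.333 and 0.133 before adjustment. With no low-count filter 16 of 464 members were called for Uprt in reads and 2 in the interaction, against 492 and 329 of all 64985 intervals. In the T>C share between Lmna genotypes 1 and 2 of 245 members were called with and without Uprt, against 27 and 66 of all 38446. DESeq2 called 6 of 205 for Uprt in reads, against 209 of all 31327 intervals. A fit of the groups compared called 2 of 171 for Lmna without Uprt, against 32 of all 26616 intervals. The omission of F/F no Uprt replicates 1 and 2 called 0 of 219, against 121 of all 33160. Lmna +/+ hearts alone gave 0 of 177 for Uprt in reads (0 of the 3 kept), against 20 of all 27444 intervals. In the share they gave 22 of 73, against 3384 of all 11156. A minimum of 50 T>C reads gave 25 of 33 tested in the share, against 3893 of all 5208. Leaving out 1 heart gave 10 to 20 members for Lmna with Uprt, 12 to 30 without, 2 to 4 for Uprt in reads and 46 to 53 in the share. Over all intervals, leaving out 1 heart gave 508 to 925, 460 to 2356, 10 to 58 and 6912 to 7666 calls. It gave Uprt differences in region share of 2.05 to 3.08 points in +/+ hearts, where 2 hearts in a group cannot pass after adjustment, and Lmna differences without Uprt of -0.708 to 0.326, which turned sign without +/+ no Uprt replicate 2. Region reads differed between Uprt and none in +/+ hearts by -177 to -124 CPM, past the threshold only without +/+ Uprt replicate 7. As the difference from all other intervals the +/+ share difference was 1.15, and on TMM-scaled library size the Lmna difference in reads with Uprt was 96.3. With the member at 34147126 left out, added after seeing the data, the Lmna difference in region share turned to 0.0257 without Uprt, and to -0.0249 with Uprt when taken against all other intervals. No named member changed direction under any alternative run. The cause of these changes was not tested. Members with few reads limit the T>C share to 95 of 974 members.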
